A study of Mus musculus with 3 samples.

Results

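The genes described here are 10 members of the BCL2 family, which set the threshold at which a cell dies by the mitochondrial pathway. They were taken by gene name from the deposited tables of mouse bone marrow (BM) after 0, 3 and 5 days of LECT2, a secreted protein. The names were Mcl1, Bcl2, Bcl2l1, Bcl2a1b, Bcl2a1d, Bax, Bak1, Bcl2l11, Pmaip1 and Bbc3. All 10 had a row, of 17222 gene names in all, and each had at least 4 reads in every library. The rule matched gene names and used no threshold on a measured value.

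Each time point was 1 RNA-sequencing library of BM cells flushed from femur, tibia, pelvis and humerus. The labels and methods name flushed cells, whereas a legend of the study names mononuclear cells, and which were sequenced is not settled by the sources used here. All mice were C57BL/6, aged 6 to 8 weeks, and male by the study's methods. The 0-day library came from mice given no LECT2, and the other libraries from mice given 300 μg per kg of recombinant LECT2 under the skin once a day for 3 or 5 days. The number of mice behind each library is not given in the sources used here, and no library of mice injected with vehicle alone was analysed. No difference between time points therefore has a replicate check, and no p-value is given.

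Survival members of the family (Mcl1, Bcl2, Bcl2l1, Bcl2a1) hold the pore-forming members Bax and Bak1 in check at the mitochondrial outer membrane. BH3-only members, such as Bcl2l11 (BIM), Pmaip1 (NOXA) and Bbc3 (PUMA), bind the survival members and free or activate Bax and Bak1. Pores made by Bax or Bak1 release cytochrome c, which starts the caspases. In marrow, Mcl1 is known to be needed by haematopoietic stem cells and neutrophils, Bcl2l1 by erythroid cells and platelets, and Bcl2 by lymphocytes. Mcl1 protein is short-lived, and NOXA binds it selectively.

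Levels are in RPKM, the reads on a gene corrected for transcript length and library total, and these may be compared between genes. Changes are log2 ratios of RPKM + 0.1, so that 1 is a doubling, and the ratios of low genes are understated. Brackets after a ratio hold a 95% exact (Clopper-Pearson) interval from its 2 read counts. The intervals cover counting error only, since reads copied by PCR, with no molecular identifiers, are not independent, and carry no variation between mice.

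At 5 days the survival and BH3-only members were lower than at 0 days, and the pore-forming member Bak1 was higher. Bcl2a1b was at a log2 ratio of −2.09, Pmaip1 at −2.08, Bcl2a1d at −1.54, Bbc3 at −1.05 and Mcl1 at −0.99. Bak1 was at 1.18. Of the 10 members, 4 were at least 2-fold lower and 1 at least 2-fold higher. The number lower was 2 with a pseudocount of 1, 5 under each of the 3 other scalings of the libraries and 7 with the dependence of ratios on gene length removed, and the number higher was 0 under these scalings and with that dependence removed. Over all 11480 genes that reached 1 RPKM in either library, 5.84% were at least 2-fold lower and 15.5% at least 2-fold higher. Bbc3 stood just inside the 2-fold line and Mcl1 just outside it. The median of the members was −0.80, beside 0.32 over all genes tested. At 3 days 1 member, Bcl2a1b, was at least 2-fold lower and 0 were higher, where 2.37% of 11308 genes were lower and 4.08% higher. With the same dependence removed, the 1 member past 2-fold at 3 days was Bcl2 and no longer Bcl2a1b, and with a pseudocount of 1 there were 0. The members' median at 3 days was −0.38, beside 0.09 over all genes.

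**Figure D1:**
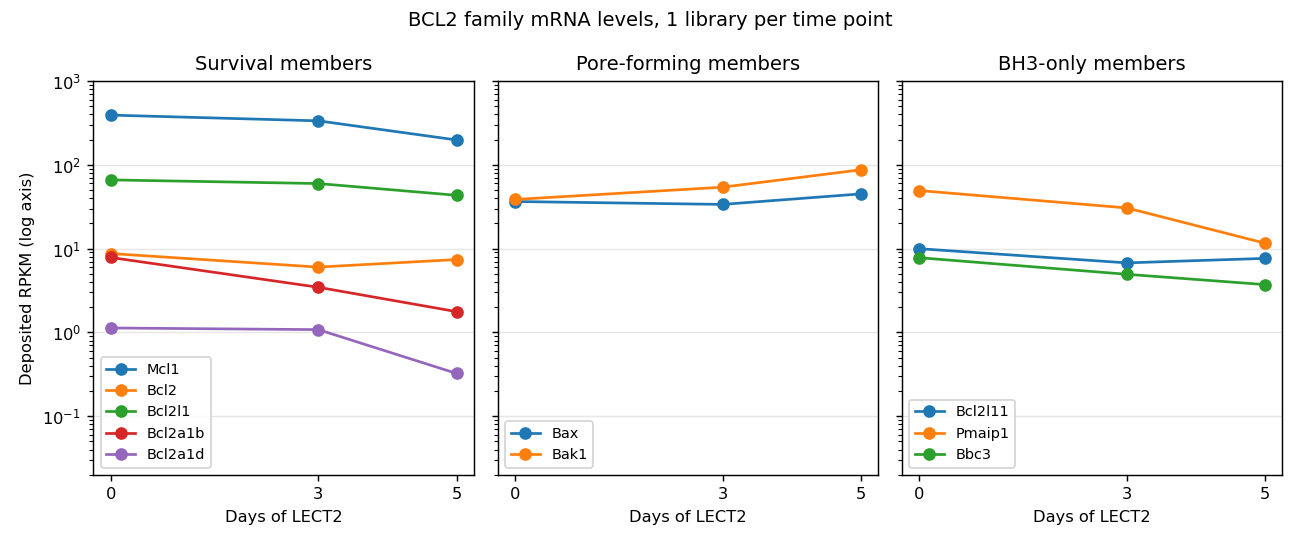
RPKM of the 10 members (log axis) against days of LECT2, with 1 point per library and no error bars because there was 1 library per time point. Mcl1 lies highest in every library, Bak1 climbs from 38.6 to 87.3 RPKM and Pmaip1 falls from 49.3 to 11.6.

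The libraries held 15146983 to 15523952 reads on genes. The 100 genes with the highest mean RPKM took up 24.8% of the 0-day reads, 19.6% of the 3-day reads and 13.5% of the 5-day reads, and the RPKM of the remaining genes moved up with that. With TMM scaling, which sets the libraries level over most genes, the median over all genes was 0.01 at 3 and at 5 days, and the 5-day ratio of Bak1 became 0.87 and that of Mcl1 −1.30. The log2 ratio also rose with gene length. With this trend removed, the members' median was −0.54 at 3 days and −1.11 at 5 days.

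Promoters are shown for the most abundant member (Mcl1) and for the member at least 2-fold higher at 5 days (Bak1). They are also shown for the nearly identical Bcl2a1 copies, of which both were lower at 5 days. Each is the 250 bases before and 50 after a transcript start from RefSeq (GRCm38.p6), printed on the strand of the gene. The RefSeq table held 14 promoters for 9 of the 10 members, and had no entry for Pmaip1. Capitals in the Bcl2a1 copies mark TGANTCA, a loose form of the AP-1 motif, and AGAGGAAG, a purine stretch with the core that ETS factors bind. Capitals in Bak1 mark AGAGGAAG and in Mcl1 the GC box GGGCGG, each on the opposite strand. The motifs were chosen after the promoters had been seen.
Bcl2a1b (chr9:89199023-89199322, plus strand): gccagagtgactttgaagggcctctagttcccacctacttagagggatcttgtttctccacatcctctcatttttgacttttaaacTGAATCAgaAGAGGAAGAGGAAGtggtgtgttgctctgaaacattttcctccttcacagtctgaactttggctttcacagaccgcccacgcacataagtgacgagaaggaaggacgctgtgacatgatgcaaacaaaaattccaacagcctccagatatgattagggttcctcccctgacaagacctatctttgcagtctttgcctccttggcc
Bcl2a1d (chr9:88731801-88732100, minus strand): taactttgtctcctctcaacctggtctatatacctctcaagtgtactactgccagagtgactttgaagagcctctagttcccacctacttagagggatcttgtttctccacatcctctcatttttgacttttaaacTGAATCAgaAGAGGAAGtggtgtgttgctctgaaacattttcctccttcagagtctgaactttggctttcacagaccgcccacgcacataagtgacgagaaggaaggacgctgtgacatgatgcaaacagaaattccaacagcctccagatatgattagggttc
Mcl1 (chr3:95658471-95658770, plus strand): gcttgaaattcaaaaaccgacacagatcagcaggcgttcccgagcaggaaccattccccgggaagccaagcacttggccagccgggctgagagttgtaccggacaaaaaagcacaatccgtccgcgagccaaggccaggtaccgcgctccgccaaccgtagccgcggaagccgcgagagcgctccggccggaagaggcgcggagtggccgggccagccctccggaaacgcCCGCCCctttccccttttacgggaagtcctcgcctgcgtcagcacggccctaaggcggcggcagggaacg
Bak1 (chr17:27028578-27028877, minus strand): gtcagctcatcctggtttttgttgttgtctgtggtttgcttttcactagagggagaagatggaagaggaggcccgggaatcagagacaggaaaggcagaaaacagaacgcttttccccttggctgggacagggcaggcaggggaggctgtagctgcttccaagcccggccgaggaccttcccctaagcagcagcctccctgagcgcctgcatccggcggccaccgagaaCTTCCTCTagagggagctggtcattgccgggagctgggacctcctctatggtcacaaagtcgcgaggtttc

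In Bcl2a1b and Bcl2a1d, 247 of 250 aligned promoter bases were identical (98.8%), leaving out 6 bases in gaps. TGANTCA was followed closely by AGAGGAAG in both. TGANTCA began 164 bases before the start of Bcl2a1b and 114 before that of Bcl2a1d. Bcl2a1b held a pair of overlapping AGAGGAAG and Bcl2a1d a single one. On either strand, TGANTCA was found in 7.81% of all 32851 promoters of this length, and among the members in Bcl2a1b and Bcl2a1d. AGAGGAAG was found in 4.55% of all promoters and in 3 members, namely both Bcl2a1 copies and Bak1, where it lay 21 bases before the start. GGGCGG was found in 35.7% of all promoters and in 7 of the 9 members. CACGTG, the E-box, was found in 7.15% of all promoters and in Bax and Bbc3. The NF-kB motif was found in 4.51% of all promoters and in Bcl2l1 and Bbc3, and TATAAA in 13.6% and in no member. Such matches describe these windows and do not show binding.

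Mcl1 was the most abundant member in every library. It occupies bases 95658788 to 95663176 of the plus strand of chromosome 3, in 3 exons (GENCODE M21, GRCm38, which is not the build mm8 named for the deposited tables). The 0-, 3- and 5-day libraries held 21279, 17731 and 10735 of its reads, or 392, 335 and 198 RPKM. The 5-day library was the lowest, at 50.5% of the 0-day level. Against 0 days, Mcl1 had a log2 ratio of −0.23 (−0.26 to −0.20) at 3 days and −0.99 (−1.02 to −0.95) at 5 days. With the length trend removed these ratios were −0.47 and −1.50. The larger step came between 3 and 5 days, at −0.76 (−0.79 to −0.72). Even at 5 days Mcl1 was at percentile 98.0 of all genes with reads, after 98.8 before LECT2.

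Bcl2l1, which encodes BCL-XL, was the next most abundant survival member. It occupies bases 152780668 to 152831728 of the minus strand of chromosome 2. In the 0-, 3- and 5-day libraries it was at 66.1, 59.8 and 43.3 RPKM, lowest in the last. Its log2 ratio was −0.14 (−0.23 to −0.06) at 3 days and −0.61 (−0.70 to −0.52) at 5 days.

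Bcl2 occupies bases 106538178 to 106714274 of the minus strand of chromosome 1, and has the longest transcript of the members in the tables, with 7206 bases. It was at 8.74 RPKM before LECT2, 6.02 after 3 days and 7.41 after 5 days. Its order differed from that of Mcl1 and Bcl2l1, with the lowest value at 3 days. Its log2 ratio was −0.53 (−0.68 to −0.39) at 3 days and −0.24 (−0.37 to −0.10) at 5 days. From 3 to 5 days it was 0.29 (0.15 to 0.45), which became −0.02 with the length trend removed, and its 3-day and 5-day ratios were then both −1.05.

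Bcl2a1b and Bcl2a1d encode copies of A1, a survival protein known from neutrophils and from lymphocytes that have been activated. Bcl2a1b occupies bases 89199209 to 89207827 of the plus strand of chromosome 9. Its reads numbered 93, 40 and 21 in the 0-, 3- and 5-day libraries, or 7.84, 3.46 and 1.77 RPKM. Each later library was lower than the one before, with a log2 ratio of −1.16 (−1.75 to −0.63) at 3 days and −2.09 (−2.90 to −1.45) at 5 days, where 1.42% of the genes tested had a lower ratio. With the length trend removed the 3-day ratio was −0.68. Bcl2a1d, on the minus strand of the same chromosome (bases 88723285 to 88731914), had only 14, 13 and 4 reads. Its log2 ratio was −0.07 at 3 days, with an interval from −1.28 to 1.13, so that no difference was detectable at this depth, and it was 0.40 with the length trend removed. At 5 days it was −1.54 (−3.87 to −0.14), and with a pseudocount of 1 it was −0.69.

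The transcripts of these copies were identical at 810 of 817 aligned bases (99.1%). Of the stretches of 50 bases in the Bcl2a1b transcript, 79.2% also occurred in another gene, mostly another Bcl2a1 copy, and in Bcl2a1d 79.5%. How the authors' counting divided reads that fit several copies is not given in the sources used here, so the division between the copies is uncertain. The reads of Bcl2a1a, Bcl2a1b, Bcl2a1c and Bcl2a1d were therefore also summed, a choice made after seeing the data. The sum was 117, 57 and 30 reads in the 0-, 3- and 5-day libraries. The summed reads gave a log2 ratio of −1.0 (−1.49 to −0.53) at 3 days and −1.96 (−2.59 to −1.37) at 5 days.

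Bak1 occupies bases 27019810 to 27029009 of the minus strand of chromosome 17, in 6 exons. Its reads numbered 1208, 1653 and 2732 in the 0-, 3- and 5-day libraries, or 38.6, 54.1 and 87.3 RPKM. Each later library was higher than the one before. The log2 ratio of Bak1 was 0.49 (0.38 to 0.60) at 3 days and 1.18 (1.08 to 1.28) at 5 days, or 2.26-fold. Of the genes tested at 5 days 89.9% had a lower ratio, and 0.87 under TMM scaling was below 2-fold. Bak1 overlaps Ggnbp1 on the opposite strand, which had 8, 8 and 11 reads.

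Bax, the other pore-forming member, occupies bases 45461697 to 45466898 of the minus strand of chromosome 7. It was at 36.5 RPKM before LECT2, 33.7 after 3 days and 45.0 after 5 days, where it was highest. Its 3-day ratio of −0.11 (−0.30 to 0.08) was within counting error, and it was 0.32 with the length trend removed. At 5 days it was 0.30 (0.13 to 0.48) and under TMM scaling −0.01, so its direction depended on the scaling. Of the genes tested, 49.3% had a lower 5-day ratio than Bax. Of the stretches of 50 bases in the Bax transcript, 13.8% also occurred in the annotated gene Gm45808.

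Pmaip1 was the most abundant BH3-only member at each time. Its reads numbered 2033, 1230 and 476 in the 0-, 3- and 5-day libraries, or 49.3, 30.6 and 11.6 RPKM, so that each later library was lower. Its log2 ratio was −0.69 (−0.79 to −0.59) at 3 days and −2.08 (−2.24 to −1.95) at 5 days, when 23.4% of the 0-day level was measured. It went from percentile 89.9 of the genes with reads to percentile 62.1. Of the genes tested at 5 days, 1.43% had a lower ratio.

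Bbc3 occupies bases 16308393 to 16318205 of the plus strand of chromosome 7. It was at 7.79 RPKM before LECT2, 4.94 after 3 days and 3.72 after 5 days, and was highest in the 0-day library. Its log2 ratio was −0.65 (−0.96 to −0.35) at 3 days and −1.05 (−1.40 to −0.74) at 5 days. The interval at 5 days runs across the 2-fold line, and with a pseudocount of 1 the ratio was −0.90.

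Bcl2l11 occupies bases 128126038 to 128162547 of the plus strand of chromosome 2. It was at 9.98 RPKM before LECT2, 6.76 after 3 days and 7.65 after 5 days, lowest at 3 days as Bcl2 was. Its ratio was −0.56 (−0.73 to −0.40) at 3 days and −0.38 (−0.54 to −0.23) at 5 days. With the length trend removed the ratios were −0.95 at 3 days and −1.05 at 5 days, since its transcript is long, with 5040 bases. Under TMM scaling they were −0.64 and −0.69, so that 5 days was the lowest under either alternative.

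**Figure D2:**
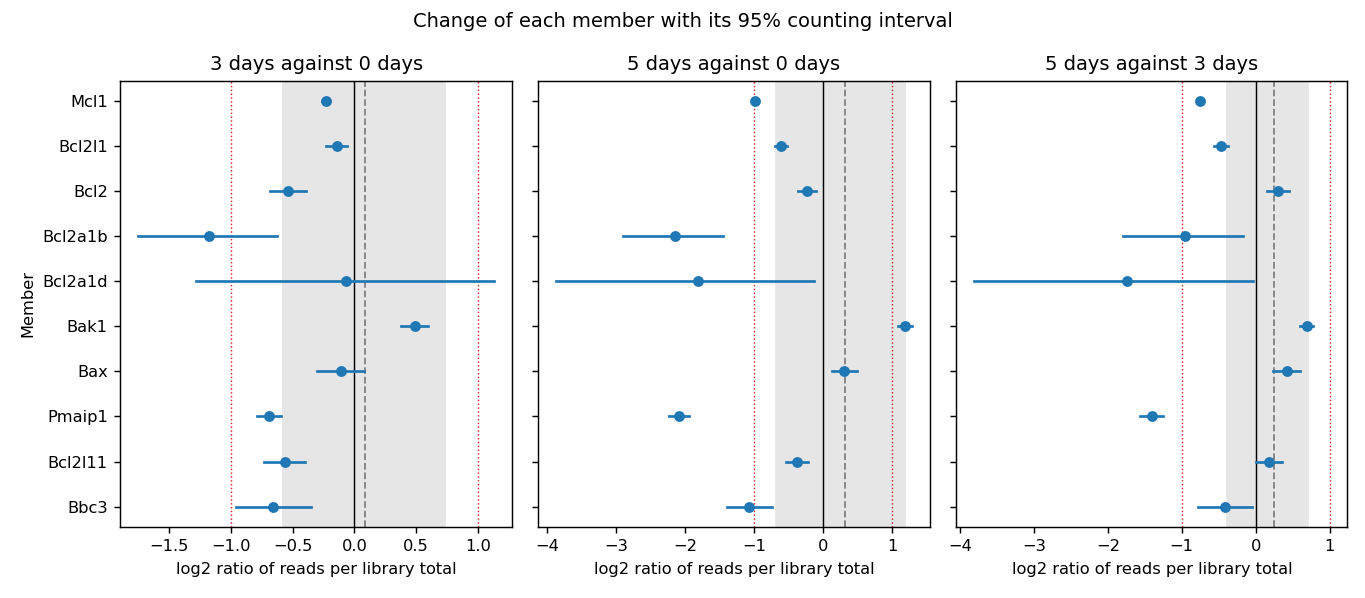
Log2 ratio of reads per library total for each member, without a pseudocount, with bars for the 95% counting interval. The grey band spans the 10th to 90th percentile of all genes tested (RPKM + 0.1), the dashed line is their median and the dotted lines are 2-fold. At 5 days against 0 days Bcl2a1b, Bcl2a1d, Pmaip1 and Bbc3 lie beyond the lower 2-fold line and Bak1 beyond the upper one.

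From 3 to 5 days alone, without the 0-day library, 2 members were at least 2-fold lower and 0 higher, where 3.43% of 11362 genes were lower and 1.95% higher. The number lower ran from 1 (with a pseudocount of 1, or a minimum of 5 RPKM) to 4 (with the length trend removed). The 2 members lower without these changes were Bcl2a1d, at −1.47 (−3.81 to −0.04) and with few reads, and Pmaip1, at −1.40 (−1.56 to −1.25). Bcl2a1b was at −0.93 (−1.80 to −0.17) and Bbc3 at −0.40 (−0.78 to −0.05). Bak1 was at 0.69 (0.60 to 0.78) and Bax at 0.42 (0.24 to 0.60). Bcl2l11 was at 0.18 (0.01 to 0.35) and turned to −0.05 under TMM scaling. The members' median was −0.43, beside 0.25 over all genes. The comparisons share libraries and are not independent of each other.

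The balance between the classes was next described within each library, where the scaling of a library cancels out. The survival members summed to 476, 405 and 251 RPKM in the 0-, 3- and 5-day libraries. The pore-forming members summed to 75.1, 87.8 and 132 RPKM, and the BH3-only members to 67.1, 42.3 and 22.9. The ratio of survival to pore-forming mRNA was 6.34, 4.61 and 1.89, lower at each later time. The ratio of survival to BH3-only mRNA was 7.09, 9.57 and 10.9 over the 3 BH3-only members. This order depended on which BH3-only genes were summed. With Bid, Bad, Bmf, Bik and Hrk added, a choice made after seeing the data, the BH3-only sum was 117, 92.0 and 79.4 RPKM and the ratio 4.08, 4.40 and 3.15, lowest at 5 days. Mcl1 made up 82.4% of the survival mRNA before LECT2, 82.6% after 3 days and 78.9% after 5 days, and Bcl2l1 13.9%, 14.8% and 17.3%. Pmaip1 made up 73.5% of the BH3-only mRNA at 0 days and 50.4% at 5 days. These are sums of mRNA levels and say nothing of protein.

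Mcl1 was 10.2 times as abundant as Bak1 before LECT2, 6.19 times after 3 days and 2.27 times after 5 days, a pair added after seeing the data. The log2 change of this ratio at 5 days was −2.16 (−2.27 to −2.06, the exact conditional interval of the 4 counts). Bax to Bak1 went from 0.945 to 0.623 and 0.516, a change of −0.87 (−1.07 to −0.67) at 5 days (−0.38 once the length trend was removed), so that the pore-forming pair moved unequally. The ratio of Pmaip1 to Mcl1, its main binding partner, went from 0.126 to 0.0914 and 0.0584, with a change of −1.11 (−1.26 to −0.96) at 5 days. Pmaip1 was thus lower relative to Mcl1 than before, although both were lower.

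The other BH3-only members moved differently against Mcl1. Bbc3 to Mcl1 was 0.0199, 0.0148 and 0.0188 in the 0-, 3- and 5-day libraries, and its change at 5 days of −0.08 (−0.42 to 0.25) was within counting error (0.27 once the length trend was removed). Bcl2l11 to Mcl1 was 0.0255, 0.0202 and 0.0387, lower at 3 days and higher at 5 days, with a change at 5 days of 0.60 (0.44 to 0.76). Bcl2l11 to Bcl2, also added after seeing the data, was 1.14, 1.12 and 1.03, and the interval of its change at 5 days ran from −0.35 to 0.06.

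Among the survival members, Mcl1 to Bcl2 was 44.8, 55.6 and 26.7, with a change of −0.75 (−0.89 to −0.61) at 5 days (−0.45 once the length trend was removed). Mcl1 to Bcl2l1 was 5.93, 5.60 and 4.57, with a change at 5 days of −0.37 (−0.47 to −0.28), or −0.60 once the trend was removed. Which of these ratios changed more thus depended on the trend. Mcl1 to Bcl2a1b was 96.8 at 3 days and 112 at 5 days, with changes from the 0-day ratio of 0.95 (0.40 to 1.53) and 1.16 (0.46 to 1.92), both 0.24 once the length trend was removed. Relative to Mcl1, Bcl2 and Bcl2l1 were therefore higher and Bcl2a1b lower at 5 days. Bax to Bcl2 was 4.17, 5.60 and 6.08, with a change at 5 days of 0.54 (0.32 to 0.76) that was 1.68 once the trend was removed.

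**Figure D3:**
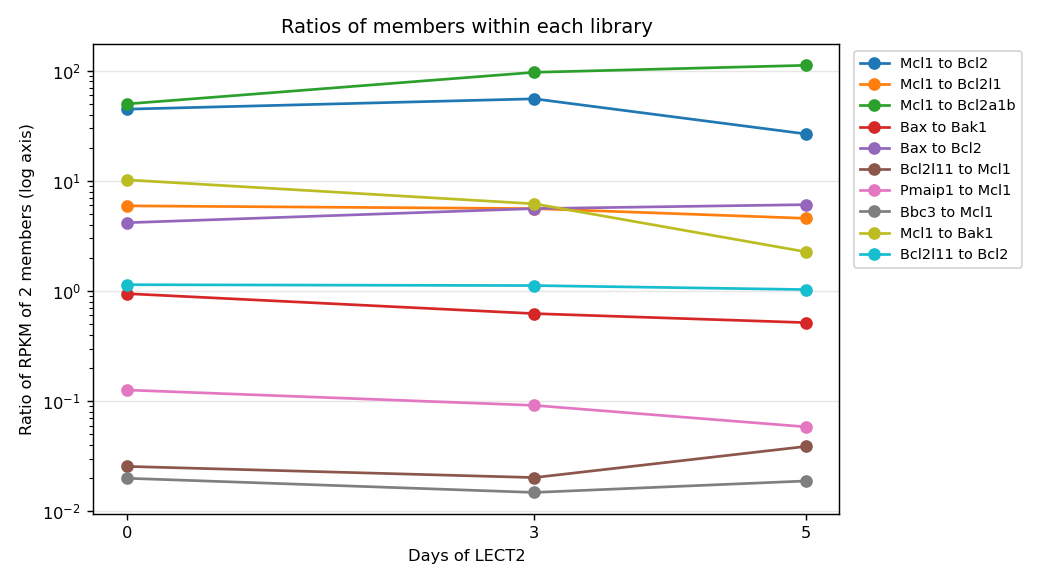
Ratio of the RPKM of 2 members in the same library (log axis) against days of LECT2, 1 line per pair. Mcl1 to Bak1 drops from 10.2 to 2.27 and Bax to Bak1 from 0.945 to 0.516, while Bcl2l11 to Bcl2 stays between 1.03 and 1.14.

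The scaling of the libraries moved the 5-day ratio of every member downward, and the removal of the length trend moved long and short members differently. Bcl2a1b, Pmaip1, Bcl2a1d and Bbc3 were at least 2-fold lower under each of the scalings and with the length trend removed, and Mcl1 joined them, at −1.19 to −1.50. Bcl2 and Bcl2l11 did so with the length trend removed alone, both at −1.05. Bak1 ranged from 0.87 to 1.00 under these alternatives and stood just under 2-fold at the highest of them. Bax was at 0.62 with the length trend removed.

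**Figure D4:**
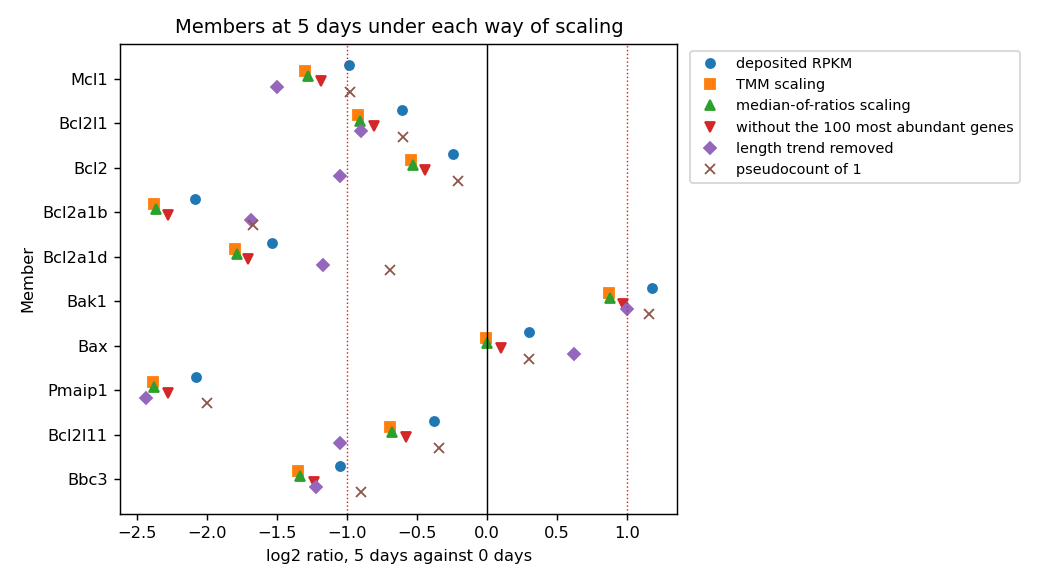
Log2 ratio of each member at 5 days against 0 days, with 1 symbol for each way of scaling the libraries, removing the length trend or setting the pseudocount, and dotted lines at 2-fold. Symbols of Mcl1, Pmaip1 and Bcl2a1b all lie left of −0.9, those of Bak1 lie between 0.87 and 1.18, and those of Bax reach from −0.01 to 0.62.

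The genes outside the list whose ratios at 3 and 5 days lay nearest to those of Mcl1 were sought among 8177 genes whose mean reached 5 RPKM. The nearest were 2610019E17Rik, Pnrc1, Ube2b, AB124611 and Oasl1, at distances of 0.00907 to 0.0690 in the plane of the 2 log2 ratios, over 3 libraries. Pnrc1, for example, was at 169, 142 and 84.7 RPKM. Bcl2a1b was taken as the most changed member at 5 days, at −2.09 beside −2.08 for Pmaip1. With the length trend removed Pmaip1 changed more, at −2.44 beside −1.69 for Bcl2a1b. For Bcl2a1b the nearest were Ier3, Tnfsf9, Ifrd1, Cd3d and Rorb. Ier3, an early response gene, was the nearest, at 148, 71.6 and 35.9 RPKM and a distance of 0.127. Within a distance of 0.1 there were 9 genes for Mcl1 and 0 for Bcl2a1b.

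Of 14 further BCL2 family genes, 13 had a row and 7 had at least 1 RPKM, and 0 of these 7 were at least 2-fold higher or lower at 3 or at 5 days. Over all genes tested at 5 days, 15.5% were higher and 5.84% lower. Bcl2l10 had no row. Bcl2l2, which encodes the survival protein BCL-w, was at 2.71, 3.19 and 5.06 RPKM, with a 5-day ratio of 0.88 (0.61 to 1.20) that was 0.37 with the trend on length removed. Among BH3-only genes, Bid, which caspase-8 cleaves, was at 23.0, 25.9 and 31.8 RPKM, Bad at 10.8, 8.32 and 11.5, and Bmf at 15.5, 15.2 and 12.9. The 5-day ratio of Bmf was −0.26, or −0.89 once the trend was removed. Bnip3l, which acts in the clearance of mitochondria from red cell precursors, was at 98.1 RPKM, 107 and 66.2, with a 5-day ratio of −0.57 (−0.63 to −0.51), or −1.04 and past 2-fold once the length trend was removed, and the related Bnip3 at 12.2, 12.5 and 8.96. Bcl2l13 was at 7.26, 9.75 and 13.7, with a 5-day ratio of 0.91 (0.11 once the length trend was removed). Bok, Bik, Hrk, Bcl2l14, Bcl2a1a and Bcl2a1c were under 1 RPKM in every library. Hrk had 0 reads at 0 and 5 days and 1 read at 3 days, and a count of 0 allows up to 3 reads.

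Downstream of the pores, genes of the apoptosome and the caspases were described without a count over their list, which is incomplete here. Cycs, which encodes cytochrome c, was at 52.5, 45.4 and 57.0 RPKM, with a 5-day ratio of 0.12 (0.04 to 0.20) that turned to −0.32 with the length trend removed. Casp2, an initiator caspase, was at 19.9, 28.4 and 37.4 RPKM, with a 5-day ratio of 0.91 (0.40 once the length trend was removed). Apaf1, the scaffold of the apoptosome, is named after its values were seen and was at 13.3, 19.7 and 24.5 RPKM, with a 5-day ratio of 0.87 (0.09 once the trend was removed).

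Of 7 inhibitors of apoptosis and their antagonists, 1 was at least 2-fold higher at 3 days (Xiap) and 2 at 5 days (Xiap and Birc6), with 0 lower. With the length trend removed 0 were higher at either time. Over all genes tested, 4.08% were higher at 3 days and 15.5% at 5 days. Xiap, which inhibits caspases, was at 9.23, 20.2 and 25.3 RPKM, and its 5-day ratio was 1.44 (0.66 once the length trend was removed). Birc6, with a very long transcript, was also at 1.44 (0.33 once the trend was removed). Birc5 was at 47.7, 34.0 and 50.8 RPKM, Birc3 at 41.2, 46.4 and 34.4, and Birc2 at 21.7, 17.5 and 18.0.

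Of 9 death receptor pathway genes, 1 was at least 2-fold lower at 3 and at 5 days and 0 were higher. This was Tnfrsf10b, a TRAIL receptor, at 9.61, 4.63 and 3.85 RPKM, with a 5-day ratio of −1.30 (−1.57 to −1.07). At 3 days 0 were lower with a pseudocount of 1. Over all genes tested, 2.37% were lower at 3 days and 5.84% at 5 days. Fas, named after its values were seen, stood just outside 2-fold, at 9.84, 10.6 and 4.90 RPKM and a 5-day ratio of −0.99 (−1.34 to −0.67). Under each of the 3 other scalings 2 genes of the list were lower at 5 days. Most of the list was not lower, with 7 of 9 above 0 at 5 days and a median of 0.35, beside 0.32 over all genes. Tnfrsf1a, the most abundant, was at 40.5, 63.6 and 57.1 RPKM, and Casp8 at 20.9, 26.6 and 30.6. Ripk1 had the highest 5-day ratio of the list, 0.78 (0.15 once the trend was removed).

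Pmaip1, Bbc3 and Bax are known targets of p53, and other p53 pathway genes were described beside them. Of 7 with at least 1 RPKM, 1 was at least 2-fold higher at 3 days and 0 at 5 days, with 0 lower. The higher gene, Sesn2, was at 2.82, 6.21 and 4.24 RPKM and is named after its values were seen. With a pseudocount of 1 or with the length trend removed, 0 were higher at 3 days. Over all genes tested, 4.08% were higher at 3 days and 15.5% at 5 days. Trp53 itself was at 44.2, 57.5 and 85.6 RPKM, with a 5-day ratio of 0.95 (0.86 to 1.05). Cdkn1a, the best known target, was at 61.2, 45.8 and 44.8 RPKM, a 5-day ratio of −0.45 (−0.55 to −0.35), and Trp53inp1 was at 52.9, 65.4 and 51.4. The list's median at 5 days was 0.47, beside 0.32 over all genes, and 0.12 once the trend was removed. Among the members, Pmaip1 was at −2.08, Bbc3 at −1.05 and Bax at 0.30.

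Of 3 listed enzymes among those that control the turnover of Mcl1 protein, Huwe1 and Usp9x were at least 2-fold higher at 5 days and 0 were lower. Under each of the 3 other scalings 1 was higher and 1 lower, and with the length trend removed 0 were higher and 1 lower. Over all genes tested at 5 days, 15.5% were higher and 5.84% lower. Huwe1, a ubiquitin ligase, was at 8.38, 17.2 and 29.2 RPKM, with a 5-day ratio of 1.79 (0.70 once the length trend was removed). Usp9x, a deubiquitinase that stabilises Mcl1, was at 7.60, 12.1 and 16.6 RPKM, with a 5-day ratio of 1.12 (0.11 once the trend was removed). Fbxw7, part of another ligase, was at 12.3, 8.46 and 6.59 RPKM, a 5-day ratio of −0.89 (−1.07 to −0.73) that became −1.48 with the trend removed.

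**Figure D5:**
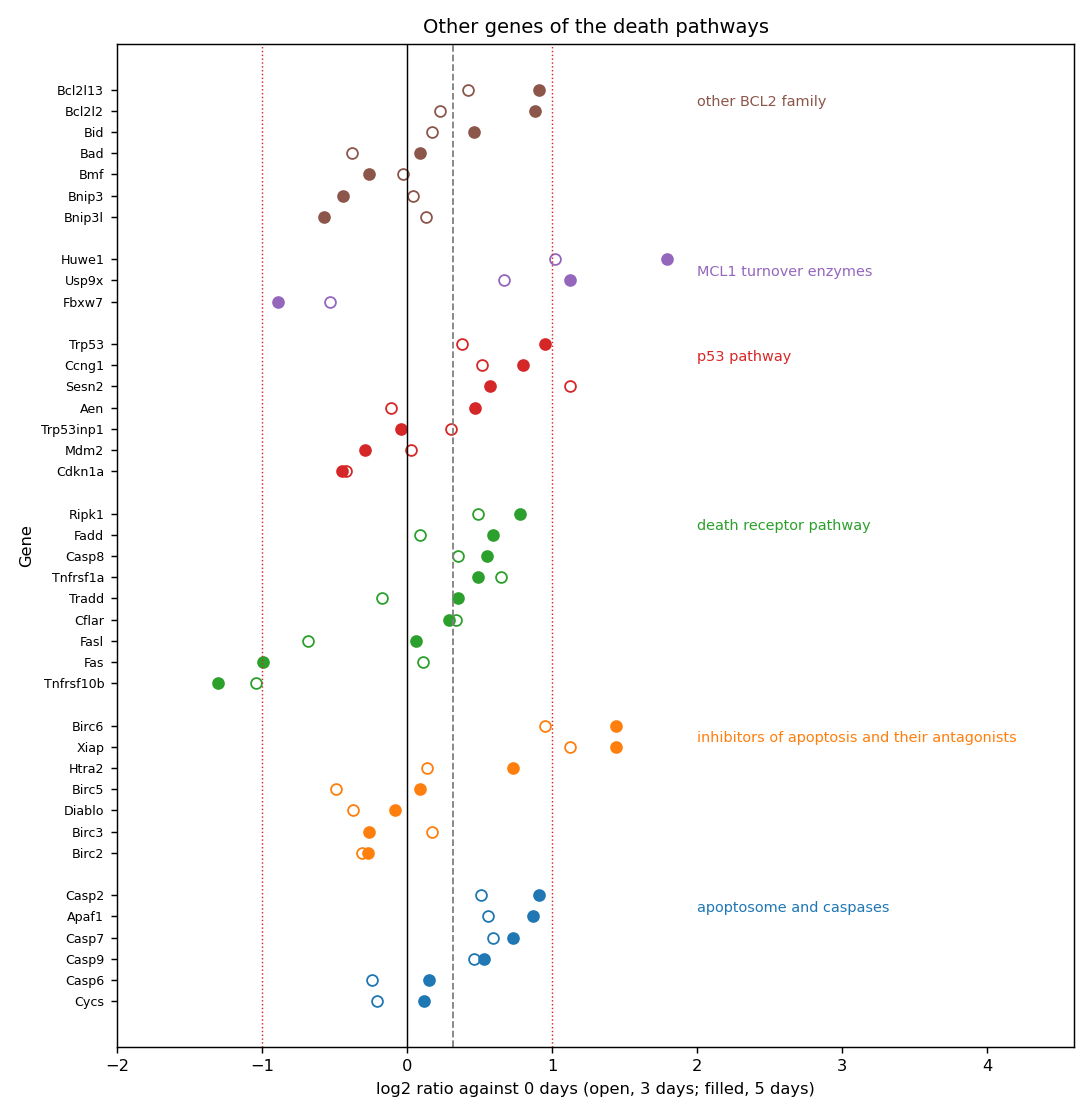
Log2 ratio (RPKM + 0.1) against 0 days for genes of 6 lists with at least 1 RPKM, open circles at 3 days and filled circles at 5 days. Dotted lines are 2-fold and the dashed line is the median of all genes at 5 days (0.32). Huwe1 lies farthest right at 1.79 and Tnfrsf10b farthest left at −1.30.

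Marrow is a mixture, and in such bulk samples fewer cells of a type and less RNA per cell cannot be told apart. Markers of several cell types moved between the libraries. Over all genes tested, 15.5% were at least 2-fold higher and 5.84% lower at 5 days. At 3 days 4.08% were higher and 2.37% lower. A single marker past 2-fold is therefore not read as a change of its cell type. The 11 late neutrophil markers with a row, of 12 listed (Ly6g had none), summed to 150237, 116373 and 41570 RPKM, and 11 of 11 were at least 2-fold lower at 5 days. The 8 erythroid markers with a row, of 9, summed to 4412, 3586 and 1567 RPKM, with 2 of 8 lower, namely the globin genes Hbb-b1 and Hba-a1, which held most of the sum. Slc4a1, at 109, 183 and 174 RPKM, and Klf1, at 26.5, 21.3 and 27.8, did not follow the sum. The macrophage markers summed to 320, 483 and 665 RPKM, with 4 of 8 higher at 5 days, and the promyelocyte markers to 2241, 2075 and 3619, with 1 of 5 higher (Mpo). The B cell markers summed to 2438, 1958 and 1779 RPKM, with 1 of 10 higher at 3 and at 5 days (Rag1, at 17.9, 42.4 and 41.4) and 0 lower. With the length trend removed Rag1 was under 2-fold, at 0.75 at 3 days and 0.42 at 5 days. The T and NK cell markers summed to 216, 133 and 186 RPKM, with 2 of 10 lower at 3 days (Cd3e and Cd3d) and 1 at 5 days (Cd3d). The megakaryocyte markers summed to 39.0, 19.9 and 36.2 RPKM, with 2 of 5 lower at 3 days and 0 at 5 days. The osteolineage, stromal and endothelial markers, in 1 list, summed to 89.0, 86.7 and 60.5, with 4 of 6 lower at 5 days. These 4 were Col1a1, Col1a2, Bglap and Cxcl12. The endothelial Pecam1 held the largest part of the sum and did not follow it, at 38.1, 33.5 and 41.7 RPKM. No marker with a row was at 0 reads in any library. Whether whole flushed marrow or mononuclear cells were sequenced bears on the neutrophil sums and was not tested. Cell-cycle genes summed to 804, 838 and 1356 RPKM, with 5 of 10 higher at 5 days. With the length trend removed only Aurka stayed past 2-fold, at 1.04. Mki67, Top2a, Ccnb1 and Bub1 were then at 0.75, 0.55, 0.82 and 0.56. The median of the cell-cycle genes at 5 days was 1.04, or 0.58 with the trend removed.

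Genes that cells switch on within minutes of a stimulus or of handling also moved. The 11 immediate early genes summed to 5752, 4846 and 1603 RPKM, with 0 lower at 3 days and 11 of 11 at least 2-fold lower at 5 days. The 11 NF-kB targets, the class to which Bcl2a1 genes also belong, summed to 1635, 864 and 424 RPKM, with 2 lower at 3 days and 4 at 5 days. Nfkbia was the most abundant of them, at 991, 401 and 172 RPKM. The part of these cell types and gene classes in the levels of Mcl1, Bcl2a1b, Pmaip1, Bbc3 and Bak1 was not tested.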

How the data were processed

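RNA of BM cells flushed from mice after 0, 3 and 5 days of LECT2 was enriched with oligo(dT) beads, made into libraries with the Illumina TruSeq RNA kit, which as described does not mark strand, and sequenced on a HiSeq instrument, with 1 library per time point. The authors deposited 3 tables of pairwise comparisons with read counts and RPKM for each gene. The methods name Cufflinks for quantitation, the processing notes name mm8, and the aligner is not given in the sources used here. In the deposited tables, RPKM was the count over gene length and over the reads on all listed genes (to 0.1%, apart from 18 rows at 0 days and 14 at 3 days). Genes without reads, listed at 0.01 RPKM, were set to 0. The authors' log2 ratios, P values and false discovery rates were not used.

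Of 17559 rows, 28 had no gene name and were left out, and 232 names had more than 1 row, where the row of highest mean RPKM was taken. Ratios used a pseudocount of 0.1, and the 2-fold counts cover genes that reach 1 RPKM in either library. A read on 1000 bases was worth 0.0644 to 0.0660 RPKM. No ratio was given against 3 reads or fewer. Members and lists were chosen with earlier results of these data known. Genes named were all members, the other BCL2 family genes, up to 4 genes of each further list (the 2 most abundant, the largest rise and the largest fall at 5 days, while marker lists are given mainly by sums and counts), and the 5 genes nearest to the most abundant and to the most changed member. Birc6, whose 5-day rise equalled that of Xiap after rounding, was named as well. Fas, Sesn2, Apaf1, Tnfaip3 and the single markers named were chosen after their values were seen. Alternatives were pseudocounts of 1 and 0.01, TMM (edgeR 4.0.16), median-of-ratios (DESeq2 1.42.0), scaling without the 100 most abundant genes, the sum of rows, the length trend removed (lowess, span 0.3, statsmodels 0.14.6), a minimum of 5 RPKM and none. Python 3.11.15, scipy 1.17.1 and R 4.3.3 were used, and the steps were tested on simulated data. Promoters came from RefSeq (GRCm38.p6) and gene positions from GENCODE M21 (GRCm38). The build of the tables differs, so no coordinate was joined to them. A gene of the pathway lists is not reported here and was left out of its list.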

Additional observations from a re-analysis of the deposited data

How the results depend on the processing

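With 1 library per time point no value has a spread between mice. No paired analysis was possible because each time point had 1 library, whose replicate number is only a name. Depth limits Bcl2a1d, with 4 to 14 reads, and Bcl2a1b, with 21 to 93.

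Of 30 member ratios, 30 stayed within their counting interval with a pseudocount of 1, with one of 0.01 and with the sum of rows. Under TMM 15 did, under median-of-ratios 15, with the length trend removed 12 and without the 100 most abundant genes 18. Moves under the 3 scalings were all downward, and those with the length trend removed went up in 8. The sign changed for Bax at 5 days against 0 days (TMM −0.01, median-of-ratios 0.00 after rounding), for Bcl2l11 at 5 against 3 days (TMM −0.05, median-of-ratios −0.04, length trend removed −0.12) for Bcl2 at 5 against 3 days (length trend removed −0.02), and at 3 days against 0 days for Bax (0.32) and Bcl2a1d (0.40), both with the length trend removed. With 5 other BH3-only genes added, chosen after seeing the data, the log2 change of the ratio of survival to BH3-only mRNA at 5 days went from 0.62 to −0.37, and at 5 against 3 days from 0.19 to −0.48.

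The members' median at 3 days against 0 days was −0.54 with the length trend removed. At 5 days against 0 days it was −0.64 with a pseudocount of 1, −1.11 under TMM, −1.10 under median-of-ratios, −1.0 without the 100 genes and −1.11 with the length trend removed. At 5 against 3 days it was −0.66, −0.65 and −0.68 under TMM, median-of-ratios and the length trend removed. With a pseudocount of 1, 0 members were at least 2-fold lower at 3 days, 2 at 5 days against 0 days and 1 at 5 against 3 days. With the length trend removed 7 were lower at 5 days and 4 at 5 against 3 days, and with a minimum of 5 RPKM 1 was lower at 5 against 3 days, since fewer genes were counted. The count of members at least 2-fold higher at 5 days was 0 under TMM, median-of-ratios, without the 100 genes and with the length trend removed, since Bak1 then stood under 2-fold. Of 24 changes of ratios between members, 13 moved with the length trend removed, and Bbc3 to Mcl1 at 5 days against 0 days turned from −0.08 to 0.27. Of 36 counts over the pathway lists, 32 stayed within 1.5 times under TMM and 29 with the length trend removed.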
